A study of Danio rerio with 16 samples.

Results

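The genes of prostaglandin synthesis were examined in whole brains of zebrafish from 4 strains and both sexes. Of 7 gene symbols named for this pathway (ptgs1, ptgs2a, ptgs2b, ptgdsa, ptgdsb, ptges and hpgds), 4 were matched by symbol among the 15304 protein coding genes: the cyclooxygenases ptgs1 and ptgs2a, the prostaglandin D2 synthase ptgdsb and the prostaglandin E2 synthase ptges. The other 3, ptgs2b, ptgdsa and hpgds, are not analysed here. The study compared males with females across strains by RNA-sequencing. The lines HSB and LSB were bred selectively from wild-caught fish, whereas AB and SH came from commercial suppliers. All fish were sexually mature at 17 weeks of age and kept in mixed sex tanks, and some of the HSB and LSB fish had been through a behavioural test weeks earlier. Each library was made from RNA of 10 fish of the same strain and sex, and each strain had 2 male and 2 female pools, giving 16 libraries and 160 fish. A pool gives no measure of the spread between single fish, and p-values rest on the spread between pools. In the sex and strain tests that spread also holds any unevenness of the sex difference across strains.

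Prostaglandins are made from arachidonic acid, which phospholipases and other lipases free from membrane lipids. Cyclooxygenases convert it to prostaglandin H2, the shared precursor, and terminal synthases turn this precursor into prostaglandin D2, E2 or F2α, prostacyclin or thromboxane, which act on receptors at the cell surface and are taken up and inactivated by transporters and reductases. In the mammalian brain the lipocalin-type prostaglandin D2 synthase is made by leptomeninges, choroid plexus and oligodendrocytes, is secreted into cerebrospinal fluid, carries retinoids and other lipophilic ligands, and makes a prostaglandin linked to sleep. Cyclooxygenase 2 is an inducible enzyme that in mammals is also found in active neurons.

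Levels are given as CPM, the reads on a gene after each library was scaled to a sum of 1000000. Depth ranged from 18398865 to 35737825 reads on genes, with a median of 28773428. All pools held whole brains, so fewer cells of a type and less RNA per cell cannot be told apart. The libraries labelled pool 2 of LSB went against their sex labels for dio2, the deiodinase that activates thyroid hormone. In HSB, AB and SH, dio2 ranged over 110 to 198 CPM in males and over 42.1 to 76.7 CPM in females, but in pool 2 of LSB it was 40.1 CPM in the male library and 128 CPM in the female library. Tests of the named genes and the counts over gene lists were therefore also run without these 2 libraries, and the values are given where they bear on a result.

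The 4 genes differed in the factors with which their levels varied. The level of ptgdsb was lower in males than in females and also differed between strains, ptgs2a and ptges differed between strains, and ptgs1 passed neither test. By limma with Benjamini-Hochberg adjusted p under 0.05, 1 of the 4 genes was called for sex, against 0.0392% of all genes, and 3 of 4 for strain, against 61.5% of all genes. The 4 genes were chosen with earlier results of these data known, so these counts are no test of the pathway as a set. The share of the sum of squares of log2(CPM + 0.5) that fell between strains was 92.5% for ptgs2a, 79.4% for ptgdsb, 57.2% for ptges and 40.2% for ptgs1, beside a median of 56.3% over all genes. The share between sexes was 17.5% for ptgdsb, beside a median of 2.56% over all genes, and it was 0.0163% for ptgs2a, 2.51% for ptges and 0.766% for ptgs1.

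**Figure D1:**
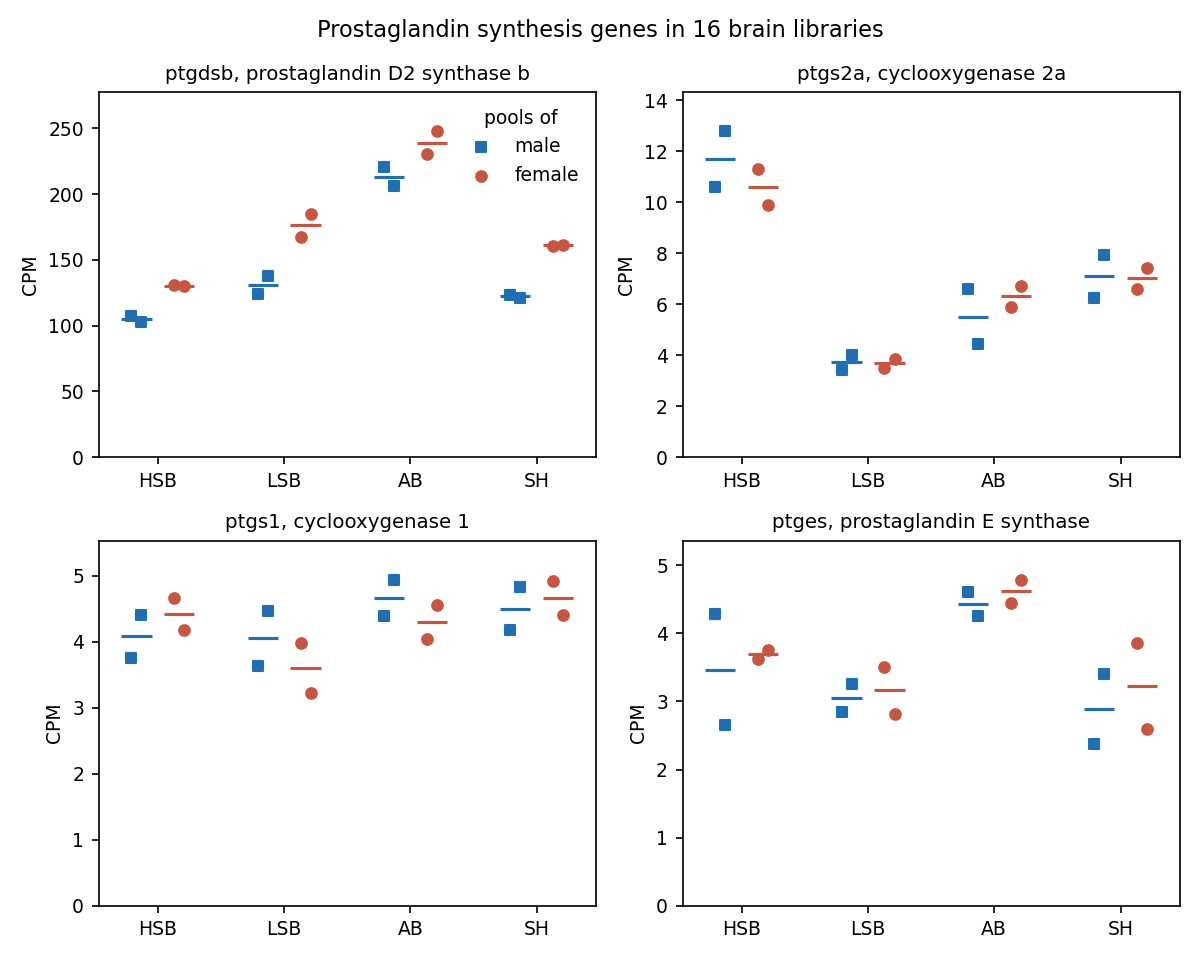
Level in CPM of ptgdsb, ptgs2a, ptgs1 and ptges in each of the 16 libraries, by strain. Blue squares are pools of males, red circles pools of females and bars the mean of 2 pools. For ptgdsb the male pools, as labelled, lay below the female pools in every strain. For ptgs2a all HSB libraries, at 9.89 CPM or more, lay above all other libraries.

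The first step of synthesis was represented by ptgs1 and ptgs2a. The constitutive cyclooxygenase ptgs1 (ENSDARG00000052148) was at 3.76 and 4.41 CPM in males and 4.67 and 4.19 CPM in females of HSB. It was at 3.64 and 4.47 CPM in males and 3.98 and 3.23 CPM in females of LSB. In AB the values were 4.39 and 4.94 CPM in males and 4.04 and 4.56 CPM in females, and in SH 4.18 and 4.83 CPM in males and 4.92 and 4.41 CPM in females. The libraries of all strains and both sexes overlapped. The strain test was not passed (F = 2.20, adjusted p = 0.164 by limma), and the male minus female difference was 0.03 on the log2(CPM + 0.5) scale, with a standard error (SE) of 0.07, a 95% interval of -0.13 to 0.18 and an adjusted p of 0.926. The widest pair, LSB minus SH, was -0.24 (95% interval -0.45 to -0.02, adjusted p = 0.0619) and passed without the LSB male pool 2 (-0.31, adjusted p = 0.0226) or the SH male pool 1 (-0.28, adjusted p = 0.0450). These values rested on 77 to 176 reads per library.

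The inducible cyclooxygenase ptgs2a (ENSDARG00000004539) was at 10.6 and 12.8 CPM in males and 11.3 and 9.89 CPM in females of HSB, against 3.41 and 4.02 CPM in males and 3.51 and 3.86 CPM in females of LSB. The AB values were 6.59 and 4.42 CPM in males and 5.91 and 6.71 CPM in females. The SH values were 6.23 and 7.94 CPM in males and 6.60 and 7.43 CPM in females. Every HSB library lay above, and every LSB library below, all libraries of the other strains, a pattern that 13 of the 15304 genes (0.0849%) shared. The selected lines were thus at the ends of the order, with AB and SH between them.

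Strain means of ptgs2a were 11.1 ± 1.23 CPM in HSB, 3.70 ± 0.285 CPM in LSB, 5.91 ± 1.05 CPM in AB and 7.05 ± 0.775 CPM in SH (SD, n = 4 libraries each). The strain test gave F = 52.0 with an adjusted p of 9.78e-07 by limma. HSB exceeded LSB by 1.47 on the log2 scale (SE 0.12, adjusted p = 7.02e-07), and the ratio of the mean levels was 3.01. The span from the lowest to the highest strain mean was wider than that of 97.9% of genes, and a typical gene spanned 0.28 on the same scale. HSB was also higher than AB by 0.87 (adjusted p = 9.03e-05) and higher than SH by 0.62 (adjusted p = 9.96e-04), while LSB minus AB was -0.60 (adjusted p = 0.00184) and LSB minus SH -0.84 (adjusted p = 4.85e-05). AB and SH were the neighbours in this order that did not pass, at -0.25 (95% interval -0.50 to 0.01, adjusted p = 0.116). Without pool 2 of LSB, HSB minus LSB was 1.55 (adjusted p = 6.52e-06), and in males alone LSB minus AB did not pass (-0.49, adjusted p = 0.138).

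No sex difference was called for ptgs2a. The male minus female difference was -0.01 (SE 0.08, 95% interval -0.19 to 0.16, adjusted p = 0.967), and in no strain did the male libraries lie all on one side of the female libraries. The reads on ptgs2a numbered 82 to 344 per library.

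**Figure D2:**
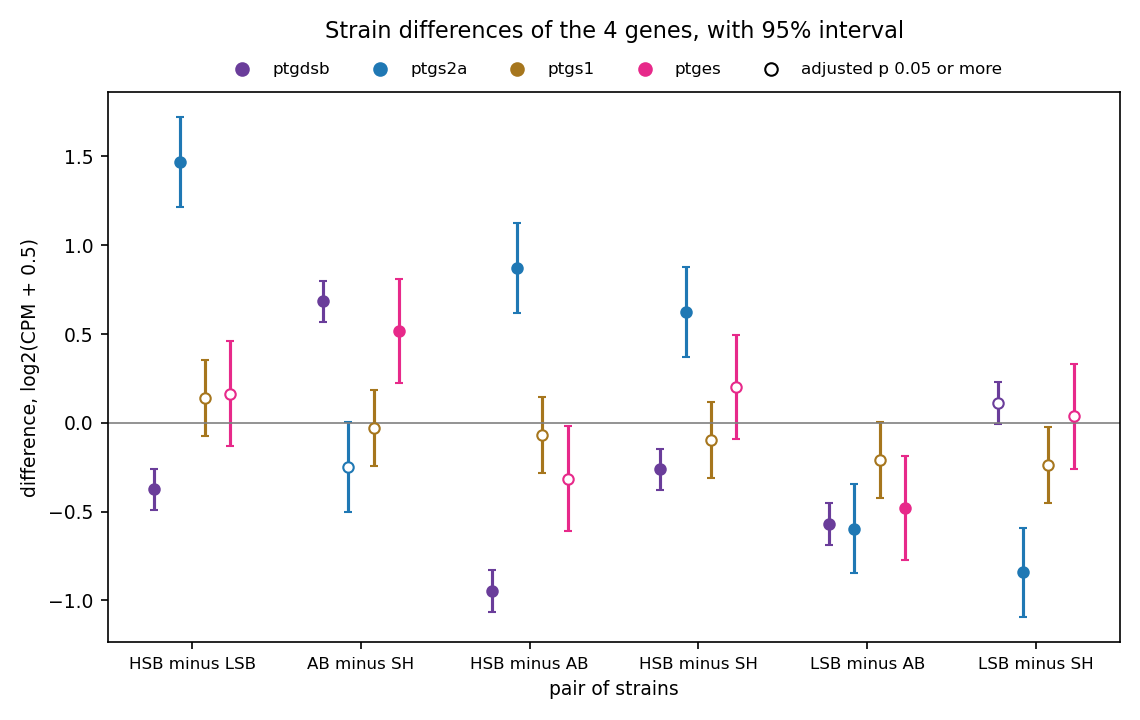
Difference between each pair of strains for the 4 genes on the log2(CPM + 0.5) scale, first-named strain minus the other. Points are limma estimates and bars 95% intervals; open points had an adjusted p of 0.05 or more. The widest difference was that of ptgs2a between HSB and LSB, at 1.47, and all 6 estimates for ptgs1 are open.

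The next step, formation of prostaglandin D2, was represented by ptgdsb (ENSDARG00000027088), a lipocalin-type synthase that is now called ptgdsb.1. Its levels were 107 and 103 CPM in males and 131 and 130 CPM in females of HSB. In LSB they were 124 and 138 CPM in males and 168 and 185 CPM in females. In AB they were 220 and 206 CPM in males and 231 and 248 CPM in females, and in SH 124 and 121 CPM in males and 161 and 162 CPM in females. Both male pools were below both female pools in each of the 4 strains, which held for 58 of the 15304 genes (0.379%). Both statements take pool 2 of LSB as labelled, although its dio2 went against the labels. In pool 1 of LSB alone, ptgdsb was at 124 CPM in the male and 168 CPM in the female library. Over strains, however, the sexes overlapped, since males of AB were higher than the females of every other strain.

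Averaged over 8 pools of each sex, ptgdsb was at 143 ± 44.9 CPM in males, against 177 ± 42.9 CPM in females, where the SD lies mostly between strains. With strain in the model, the male minus female difference was -0.32 on the log2 scale (SE 0.04, 95% interval -0.41 to -0.24, adjusted p = 0.00475 by limma), a male to female ratio of 0.799. It had the lowest p of all genes in the sex test, in which 5 genes were called higher and 1 lower in males (0.00653% of genes), and ptgdsb was the lower one. Of the other members, ptges was at -0.09 (SE 0.10, 95% interval -0.29 to 0.12, adjusted p = 0.773). Without pool 2 of LSB the difference for ptgdsb was -0.31 (adjusted p = 3.92e-04). It kept its direction but was not called without SH (-0.30, adjusted p = 0.139) or without HSB (-0.33, adjusted p = 0.158). Over all genes, 0 were called for sex in these fits, against 1 without AB and 109 without LSB. The cause was not tested.

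Within single strains the male minus female difference of ptgdsb was -0.31 in HSB (SE 0.06, 95% interval -0.45 to -0.18), -0.43 in LSB (-0.56 to -0.29), -0.16 in AB (-0.30 to -0.03) and -0.40 in SH (-0.53 to -0.26). The male to female ratios were 0.805 in HSB, 0.744 in LSB, 0.892 in AB and 0.760 in SH. The difference was called in LSB (adjusted p = 0.00977 by limma, where 11% of all genes were called) and not in HSB (adjusted p = 0.237, 0% called), AB (adjusted p = 0.891, 0.0131% called) or SH (adjusted p = 0.0514, 0.0392% called). In HSB 0 genes were called, while 974 genes had an unadjusted p under 0.05. The call in LSB was lost without both libraries of pool 2 of that strain (-0.43, adjusted p = 0.0552), without the LSB male pool 1 (-0.35, adjusted p = 0.0651) and without the LSB female pool 2 (-0.36, adjusted p = 0.0581). Without both libraries of pool 2 the difference was called in SH (adjusted p = 0.00623) and in HSB (adjusted p = 0.0394), and in SH it was also called without any single LSB library (adjusted p 0.0259 to 0.0460). Over all genes, the fit without both libraries of pool 2 called 21 genes for sex in HSB, 11 in LSB, 12 in AB and 38 in SH, where the fit of all libraries called 0 in HSB, 1684 in LSB, 2 in AB and 6 in SH. No other member was called for sex in any strain, so 1 of the 16 tests passed. The sexes differed by unequal amounts across strains at an unadjusted p of 0.0480, but this interaction did not pass after adjustment (F = 3.44, adjusted p = 0.295). None of the 4 genes was called for the interaction, against 0.0327% of all genes, and ptgdsb was the 1 of 4 with an unadjusted p under 0.05, beside 2538 of the 15304 genes (16.6%). Without pool 2 of LSB its interaction gave F = 4.82 (adjusted p = 0.510).

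**Figure D3:**
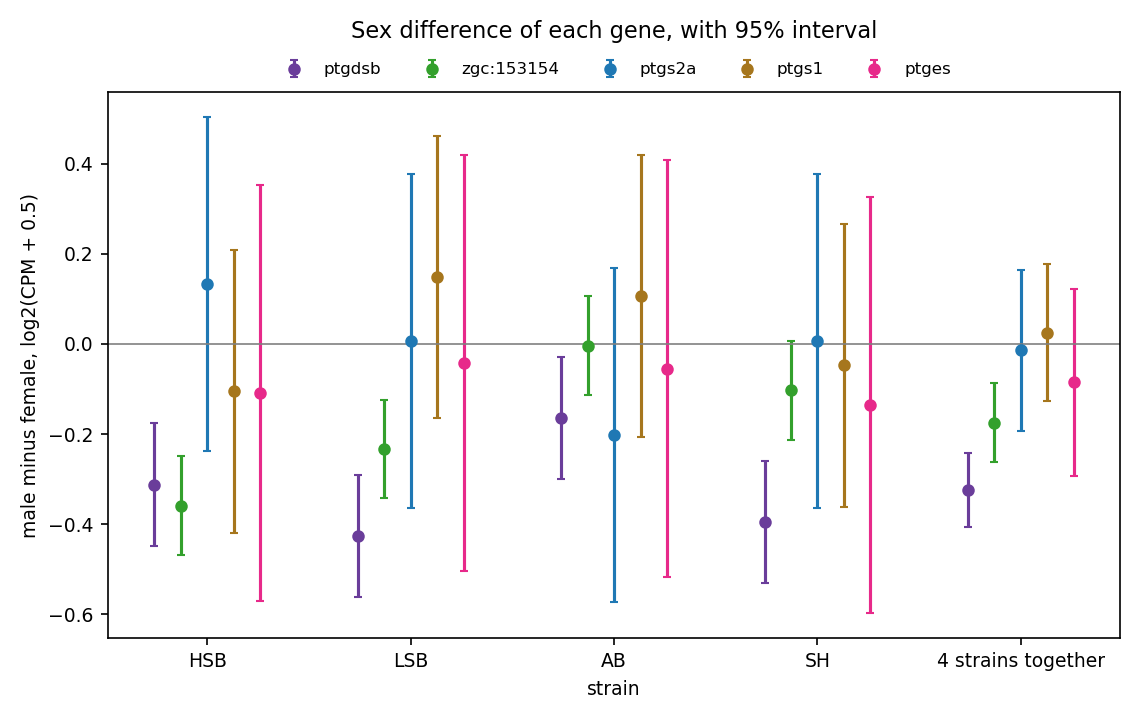
Male minus female difference of each gene in each strain and over the 4 strains, on the log2(CPM + 0.5) scale. Points are limma estimates and bars 95% intervals. The 5 estimates for ptgdsb lie below 0, from -0.43 in LSB to -0.16 in AB, while the intervals of ptgs2a, ptgs1 and ptges all include 0.

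The level of ptgdsb differed more between strains than between sexes. Means over both sexes were 118 ± 14.8 CPM in HSB, 154 ± 27.6 CPM in LSB, 226 ± 17.5 CPM in AB and 142 ± 22.4 CPM in SH (SD, n = 4 libraries each). All AB libraries, at 206 CPM or more, lay above all libraries of the other strains, at 185 CPM or less, as 433 genes (2.83%) did. The order AB, LSB, SH, HSB was seen in each sex, from the highest to the lowest. Male means were 105 CPM in HSB, 131 CPM in LSB, 213 CPM in AB and 122 CPM in SH, and female means were 130 CPM in HSB, 176 CPM in LSB, 239 CPM in AB and 161 CPM in SH. The strain test gave F = 104 with an adjusted p of 2.33e-08 by limma. HSB was lower than AB by a difference of -0.95 on the log2 scale (SE 0.06, adjusted p = 1.02e-08), and the span of the strain means was wider than that of 94.8% of genes.

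The steps along this order were then tested in pairs. AB exceeded SH by 0.68 (adjusted p = 2.65e-07), and LSB minus AB was -0.57 (adjusted p = 2.33e-06). HSB minus LSB was -0.37 (adjusted p = 2.23e-04) and HSB minus SH -0.26 (adjusted p = 0.00209). LSB and SH were the neighbours that did not pass, at 0.11 (95% interval -0.00 to 0.23, adjusted p = 0.101). That last value depended on scaling and on 1 library: it was 0.18 (adjusted p = 0.0236) after median-ratio scaling and 0.16 (adjusted p = 0.0254) without the LSB male pool 1. In all pairs together, 12 of the 24 tests on the 4 genes passed, where the share of all genes called was 21.9% for HSB minus LSB, 36.8% for AB minus SH, 18.6% for HSB minus AB, 32.7% for HSB minus SH, 25.8% for LSB minus AB and 49% for LSB minus SH. The SD between pools of the same strain and sex was 0.064 for ptgdsb on the log2 scale, on 2398 to 8042 reads per library.

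In the current RefSeq assembly GRCz12tu, ptgdsb.1 lies next to a second copy, ptgdsb.2, between zfx and c8g. The second copy was listed in these data as zgc:153154 (ENSDARG00000071626), a symbol outside the named genes that was singled out after its values were seen. Reads were counted in the union mode of HTSeq, which sets aside reads that overlap more than 1 gene. How reads that aligned equally well to both copies were treated was not given in the sources used here, so the levels of both are uncertain. Levels of zgc:153154 were 399 and 387 CPM in males and 520 and 488 CPM in females of HSB, 466 and 501 CPM in males and 560 and 576 CPM in females of LSB, 451 and 442 CPM in males and 445 and 451 CPM in females of AB, and 431 and 432 CPM in males and 477 and 449 CPM in females of SH. Male means were 393 CPM in HSB, 483 CPM in LSB, 446 CPM in AB and 431 CPM in SH. Female means were 504 CPM in HSB, 568 CPM in LSB, 448 CPM in AB and 463 CPM in SH. The LSB means take pool 2 as labelled.

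The sex difference of the second copy did not pass the test across all genes, at -0.17 (SE 0.04, adjusted p = 0.155 by limma), where males averaged 438 ± 36.2 CPM, against 496 ± 51.2 CPM for females (SD, 8 pools each). By strain the difference was -0.36 in HSB (adjusted p = 0.112), -0.23 in LSB (adjusted p = 0.0214), -0.00 in AB (adjusted p = 0.998) and -0.10 in SH (adjusted p = 0.843). The interaction was not called in the fit of all libraries (F = 9.24, unadjusted p = 0.00146, adjusted p = 0.163 by limma). Without the LSB female pool 1 its F was stronger, at 9.83, in a fit that rests on a single LSB female library. The call in LSB was lost without pool 2 (-0.27, adjusted p = 0.159), and also without the male pool 1 (-0.18, adjusted p = 0.104), the male pool 2 (-0.29, adjusted p = 0.0872) or the female pool 2 (-0.21, adjusted p = 0.132) of LSB. The difference in HSB was called without pool 2 of LSB (adjusted p = 0.0127) and without its female pool 1 or its female pool 2 alone (adjusted p = 0.0378 and 0.0377).

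The strain pattern of the neighbouring copies was unlike. The mean of zgc:153154 was 449 ± 65.8 CPM in HSB, 525.6 ± 51.3 CPM in LSB, 447 ± 4.48 CPM in AB and 447 ± 21.6 CPM in SH (SD, n = 4 each). For AB, in which ptgdsb was highest, HSB minus AB was -0.01 (95% interval -0.13 to 0.12, adjusted p = 0.961) and AB minus SH 0.00 (95% interval -0.12 to 0.12, adjusted p = 0.991). In males alone HSB minus AB passed, at -0.18 (adjusted p = 0.0380). LSB was the high strain, with LSB minus AB at 0.23 (adjusted p = 0.00962), which did not pass without pool 2 of LSB (0.19, adjusted p = 0.0659). The ratio of ptgdsb to zgc:153154 within a library was 0.251 to 0.269 in HSB, 0.267 to 0.321 in LSB, 0.467 to 0.550 in AB and 0.281 to 0.360 in SH, so the AB libraries stood apart. With pool 2 of LSB as labelled, the ratio was lower in both male pools than in both female pools in LSB, AB and SH. This was not so in HSB, where it was 0.269 and 0.266 in males and 0.251 and 0.267 in females.

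The copies were also added together, a sum from which any reads set aside as shared are missing as well. The sum averaged 566 ± 80.3 CPM in HSB, 679 ± 78.6 CPM in LSB, 673 ± 20.6 CPM in AB and 589 ± 42.2 CPM in SH (SD, n = 4 each). For this sum the male minus female difference was -0.21 (adjusted p = 0.0617 by limma), which missed the threshold. LSB minus AB was 0.01 (adjusted p = 0.949) and HSB minus SH -0.06 (adjusted p = 0.362), so these calls for ptgdsb did not hold for the sum. HSB minus AB was -0.26 (adjusted p = 0.00221) and AB minus SH 0.20 (adjusted p = 0.00801), both smaller than for ptgdsb, and LSB minus SH passed at 0.20 (adjusted p = 0.00489).

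**Figure D4:**
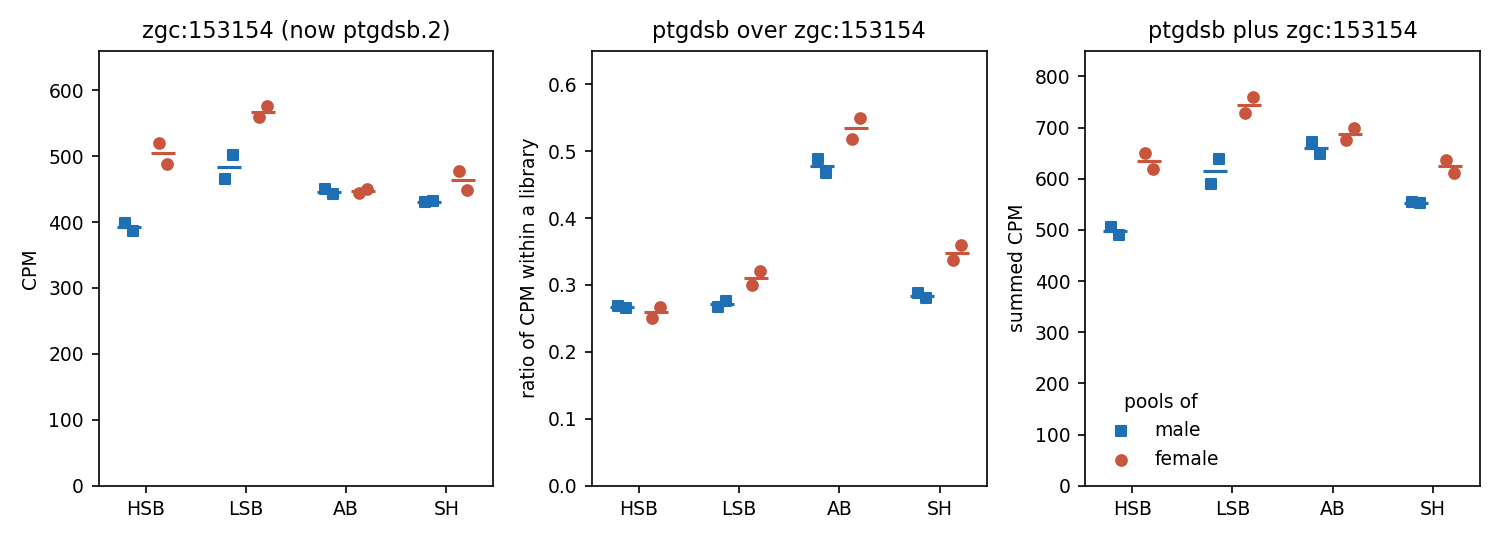
The copy next to ptgdsb, zgc:153154, in CPM, the ratio of ptgdsb to zgc:153154 within each library, and their summed CPM, by strain. Blue squares are pools of males, red circles pools of females and bars the mean of 2 pools. The ratio was 0.467 to 0.550 in AB and at most 0.360 in the other strains.

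Formation of prostaglandin E2 was represented by ptges (ENSDARG00000020136), which in mammals is the inducible microsomal synthase that works with cyclooxygenase 2. It was at 4.28 and 2.65 CPM in males and 3.63 and 3.75 CPM in females of HSB. In LSB it was at 2.85 and 3.26 CPM in males and 3.51 and 2.82 CPM in females. In AB it was at 4.60 and 4.25 CPM in males and 4.44 and 4.79 CPM in females, and in SH at 2.37 and 3.40 CPM in males and 3.86 and 2.60 CPM in females. AB libraries were high, but the lowest of them lay just under the highest HSB library, and the other strains overlapped.

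The strain test for ptges gave F = 5.76 (adjusted p = 0.0154 by limma), with means of 3.58 ± 0.679 CPM in HSB, 3.11 ± 0.335 CPM in LSB, 4.52 ± 0.230 CPM in AB and 3.06 ± 0.696 CPM in SH (SD, n = 4 each). AB exceeded SH by 0.52 (SE 0.14, adjusted p = 0.00851), and LSB minus AB was -0.48 (adjusted p = 0.0189). The other pairs did not pass: HSB minus AB was -0.31 (95% interval -0.61 to -0.02, adjusted p = 0.133), HSB minus SH 0.20 (adjusted p = 0.278), HSB minus LSB 0.17 (adjusted p = 0.411) and LSB minus SH 0.04 (adjusted p = 0.845). LSB minus AB was not called without pool 2 of LSB (-0.45, adjusted p = 0.0729) or without its female library alone (-0.42, adjusted p = 0.0516), and the strain test was not passed within a single sex (adjusted p = 0.187 in males and 0.136 in females). With 65 to 155 reads per library and a pool SD of 0.24 on the log2 scale, ptges was the least precise of the 4 genes.

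The members thus had different orders of strains, with HSB highest and LSB lowest for ptgs2a, AB highest and HSB lowest for ptgdsb, and AB highest and SH lowest for ptges. To describe which genes had the most similar pattern, Pearson's r of log2(CPM + 0.5) was computed over the 16 libraries. These come from 4 strains, so r mostly ranks likeness of strain means. For ptgs2a the 5 highest were pnpla3 (0.937), rhoub (0.913), znhit2 (0.903), npb (0.892) and si:ch211-233g6.5 (0.889). For ptgdsb they were ppan (0.918), gmcl1 (0.900), rbm34 (0.899), si:dkeyp-68b7.7 (0.897) and parp6b (0.897), and for ptges they included ugt5c3 (0.877), zgc:101566 (0.832), ttc4 (0.830) and zdhhc12b (0.825). After strain means were removed, the genes most like ptgdsb were eif4ebp1 (0.913), setb (0.912), mdka (0.888), h3f3d (0.886) and pyya (0.881). What remains in these values is the sex difference and the spread between pools, pool 2 of LSB included. On the same values r of ptgdsb with zgc:153154 was 0.828.

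The rest of the pathway was described with a list of 60 gene symbols, matched to 36 genes. For sex, 0 of the 36 were called in either direction by limma, and 3 of 36 (8.33%) had an unadjusted p under 0.05, all lower in males, beside 1555 of the 15304 genes (10.2%). The median difference was -0.03 on the log2 scale, with 24 of 36 below 0, beside a median of -0.00 and 7804 of 15304 below 0 over all genes. Without pool 2 of LSB, 0 of 36 were called for sex, 5 had an unadjusted p under 0.05, and 24 were below 0. For strain, 26 of 36 (72.2%) were called, beside 61.5% of all genes, and the median span of strain means was 0.39, beside 0.28 over all genes. By role, 9 of 14 genes of arachidonic acid release were called, 10 of 11 other terminal synthases, 2 of 2 genes of catabolism, 2 of 3 of transport and 3 of 6 receptors and their regulators. For the genes named below, highest and lowest refer to strain means, and strains next in order did not always differ by test. Without pool 2 of LSB, 26 of 36 were called for strain, and each of the genes named below passed, with an adjusted p of at most 0.00643.

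Among the genes that free arachidonic acid, a cytosolic phospholipase A2 copy, PLA2G4C (3 of 5), had the widest span. It was at 4.14 ± 0.545 CPM in HSB, 31.6 ± 13.3 CPM in LSB, 1.96 ± 0.457 CPM in AB and 0.723 ± 0.210 CPM in SH (SD, n = 4 each), a span of 4.64 on the log2 scale (adjusted p = 3.56e-10 by limma). Without pool 2 the LSB mean was 24.8 CPM. It is 1 of 5 listed copies, and the split of reads among such copies is uncertain. The copy PLA2G4C (2 of 5) was at 21.5 CPM in HSB, 18.2 CPM in LSB, 22.7 CPM in AB and 14.3 CPM in SH (adjusted p = 7.55e-04). The phospholipase cpla2 was lowest in HSB at 7.01 CPM and highest in LSB at 9.87 CPM (adjusted p = 0.0206), and abhd6a, a lipase of monoacylglycerol, was highest in AB at 4.76 CPM and lowest in SH at 3.10 CPM (adjusted p = 0.00487).

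Among the terminal synthases, the thromboxane synthase tbxas1 was at 51.1 ± 4.92 CPM in HSB, 46.1 ± 2.96 CPM in LSB, 42.4 ± 1.99 CPM in AB and 29.4 ± 1.94 CPM in SH (SD, n = 4 each, adjusted p = 1.25e-06 by limma). The SH libraries, at 31.6 CPM or less, lay below all others, as in 627 genes (4.1%). Markers of microglia and macrophages, of which 8 of 12 were matched, summed to 187 to 224 CPM in HSB and 187 to 209 CPM in LSB. In AB the sum was 166 to 187 CPM and in SH 139 to 175 CPM, and these ranges overlapped. By mean, 6 of the 8 were lowest in SH. The other 2, csf1ra and spi1a, were lowest in AB, at 21.1 and 13.1 CPM, against 28.1 and 14.8 CPM in SH. The part of these cells in the level of tbxas1 was not tested. The prostamide and prostaglandin F synthase fam213b was highest in LSB, at 12.7 CPM, and lowest in SH, at 6.59 CPM (adjusted p = 1.22e-04). HSB, at 6.65 CPM, was level with SH (adjusted p = 0.996). Entries listed as ptges3b, a cytosolic prostaglandin E synthase, had unlike strain orders. ENSDARG00000058831 was lowest in LSB at 9.78 CPM and highest in SH at 16.6 CPM (adjusted p = 1.00e-05 by limma). ENSDARG00000089626 was highest in HSB at 3.43 CPM and lowest in SH at 1.45 CPM (adjusted p = 0.00405 by limma). The split of reads between these entries is uncertain.

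In catabolism the largest strain span was that of ptgr1, a reductase that inactivates oxidised prostaglandins and leukotrienes. Its mean was 13.7 ± 0.940 CPM in HSB, 38.8 ± 2.60 CPM in LSB, 56.1 ± 18.4 CPM in AB and 14.7 ± 1.82 CPM in SH (SD, n = 4 each), a span of 1.93 on the log2 scale (adjusted p = 4.40e-07 by limma). Its libraries ranged over 12.4 to 14.6 CPM in HSB, 36.7 to 42.3 CPM in LSB, 32.9 to 74.1 CPM in AB and 12.9 to 17.1 CPM in SH. By limma, HSB minus SH (-0.10, adjusted p = 0.696) and LSB minus AB (-0.46, adjusted p = 0.0659) did not pass. The related PTGR2 was lowest in HSB, at 12.8 CPM, and highest in AB, at 18.7 CPM (adjusted p = 4.80e-04). Its HSB level was not told apart from LSB (-0.02, adjusted p = 0.902) or SH (-0.12, adjusted p = 0.357). By mean, the prostaglandin transporter slco2a1 was also lowest in HSB, at 10.5 CPM, and highest in AB, at 16.9 CPM (adjusted p = 0.00138). Its LSB minus AB difference did not pass (-0.05, adjusted p = 0.805). The organic anion transporter slco2b1 was highest in HSB, at 27.1 CPM, and lowest in SH, at 19.8 CPM (adjusted p = 0.00294).

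Of the receptors, PTGER3, which binds prostaglandin E2, was at 5.57 ± 0.795 CPM in HSB, 4.74 ± 0.951 CPM in LSB, 3.21 ± 0.195 CPM in AB and 3.99 ± 0.631 CPM in SH (SD, n = 4 each, adjusted p = 0.00252 by limma). By mean, HSB was the highest strain for this receptor and for ptgs2a, and AB the lowest for the receptor and the highest for ptges. For the receptor, HSB minus AB passed (0.70, adjusted p = 0.00184). HSB minus LSB (0.22, adjusted p = 0.251) and AB minus SH (-0.26, adjusted p = 0.145) did not. LSB, next to HSB for the receptor, was the lowest strain for ptgs2a, and for ptges HSB minus AB did not pass. Copies of PTGFRN, which in mammals encodes a regulator of the prostaglandin F2α receptor, were both highest in SH. PTGFRN (2 of 2) was at 5.20 CPM in AB against 11.4 CPM in SH (adjusted p = 4.58e-06 over strains). PTGFRN (1 of 2) was at 5.45 CPM in AB against 8.99 CPM in SH (adjusted p = 1.03e-04). AB had the lowest means, but did not differ by test from LSB (adjusted p = 0.151 and 0.858) or HSB (adjusted p = 0.138 and 0.356). No strain was highest for all roles of the pathway.

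**Figure D5:**
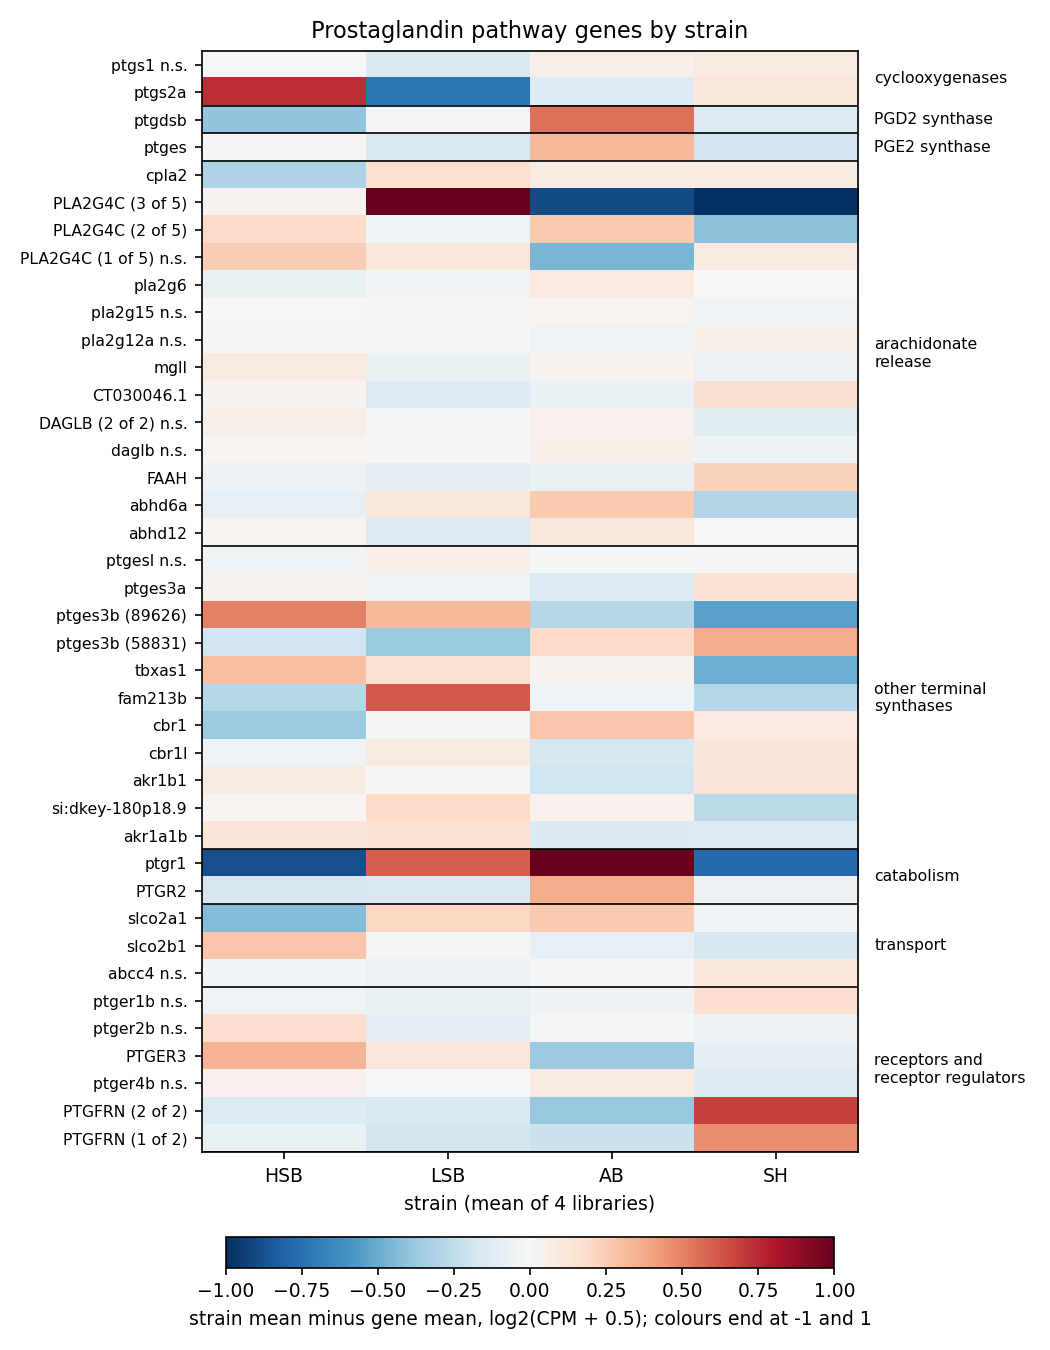
Strain means of log2(CPM + 0.5) minus the mean of each gene for the 4 members and the 36 further pathway genes, in rows grouped by role. Red is above and blue below the gene's mean, colours end at -1 and 1, and n.s. marks genes not called for strain. PLA2G4C (3 of 5) and ptgr1, with spans of 4.64 and 1.93, show the deepest colours, and the deepest cells differ in strain from row to row.

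Related lipid and lipocalin genes were also listed. Of 19 symbols for leukotriene and lipoxygenase genes, 5 were matched, of which 5 were called for strain, beside 61.5% of all genes, and 0 for sex, beside 0.0392% of all genes, by limma, and their median sex difference was -0.03. Of 9 symbols for other lipocalins, 1 was matched: rbp4, a plasma retinol carrier, averaged 249 CPM in males and 298 CPM in females (male minus female -0.24, SE 0.05), which was not called (unadjusted p = 2.89e-04, adjusted p = 0.130), nor was it without pool 2 of LSB (-0.25, adjusted p = 0.0699). Its strain order, with LSB lowest at 193 CPM and SH highest at 342 CPM, was unlike that of ptgdsb.

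Markers of cell types that express prostaglandin synthases in mammals were measured in the same libraries. For leptomeninges and fibroblasts, 11 of 14 markers were matched, and 0 were called for sex in the fit of all libraries. In sign 7 of 11 were lower in males, with a median of -0.04. The summed level was 296 to 368 CPM in males and 295 to 360 CPM in females. By strain this sum was 317 to 368 CPM in HSB, 353 to 360 CPM in LSB, 302 to 341 CPM in AB and 295 to 315 CPM in SH, an order unlike that of ptgdsb. For choroid plexus, 7 of 9 markers summed to 301 to 327 CPM in males and 317 to 334 CPM in females. Their median difference was -0.02, with 4 of 7 below 0. For oligodendrocytes, 9 of 10 markers were matched, with a summed level of 29657 to 44489 CPM in males and 26646 to 52143 CPM in females. All 9 were higher in males in sign, with a median of 0.14, opposite to ptgdsb. In the fit of all libraries 1 was called, the myelin regulator myrf (0.19, adjusted p = 0.00688 by limma). Over all genes, 0.0392% were called for sex, and 7804 of 15304 were below 0. Without pool 2 of LSB, all 9 markers of oligodendrocytes were again higher in males in sign, with a median of 0.17. Their differences ran from 0.14 (mag) to 0.25 (olig2), and markers besides myrf passed the sex test. The females summed to 26646 to 44531 CPM. In the same fit 8 of the 11 markers of leptomeninges and fibroblasts were lower in males in sign, with a median of -0.07. Higher in males were the collagen genes col1a1b (0.88) and col1a2 (0.51), and lum (0.23), of which col1a1b passed the sex test. For choroid plexus 7 of 7 were lower in males in sign, with a median of -0.02. Every gene of the data had a CPM over 1 in at least 4 libraries, so no matched marker could be at 0 in all of them. The part of these cell types in the sex difference of ptgdsb was not tested.

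For ptgs2a, the markers of neurons and vessels were set beside the strain order. The 7 matched neuron markers summed to 4875 to 5138 CPM in HSB, 4545 to 4848 CPM in LSB, 4740 to 4900 CPM in AB and 5036 to 5149 CPM in SH. The 7 matched endothelial markers summed to 235 to 246 CPM in HSB, 213 to 229 CPM in LSB, 235 to 247 CPM in AB and 249 to 257 CPM in SH. LSB was the lowest strain for endothelial markers and for ptgs2a, but SH reached the highest sums of both lists, while HSB was highest for ptgs2a. Of 10 symbols listed for gonad, 2 were matched, zp3b and tekt1, with mean levels of 2.24 to 2.37 CPM. Their sum was 4.62 to 8.54 CPM in HSB, 2.72 to 3.75 CPM in LSB, 2.81 to 3.47 CPM in AB and 4.14 to 5.20 CPM in SH. By sex the sum was 2.72 to 8.54 CPM in males and 2.81 to 8.51 CPM in females. Whether gonad tissue was present was not tested. The part of any listed cell type in the strain order of ptgs2a was not tested.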

How the data were processed

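Whole brains of 160 zebrafish were pooled by strain and sex into 16 RNA-sequencing libraries. The authors aligned reads with GSNAP to the Zv9 genome, counted them per gene with HTSeq in union mode, and deposited CPM for 15304 protein coding genes, each with a CPM over 1 in at least 4 libraries. CPM sums to 1000000 per library with no further scaling between libraries. The submitters' processing notes also name CASAVA 1.7 and edgeR. Groups came from the sample titles. CPM steps gave the reads per library (values were whole within 0.1 read), and the precision of low genes is set by their reads.

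All genes were fitted with limma 3.58.1 in R 4.3.3 (lmFit, eBayes with trend) on log2(CPM + 0.5), which understates changes of low genes. Sex was tested with strain as a term, strain with sex as a term, and the interaction and the sex difference within strains from 1 mean per strain and sex. Benjamini-Hochberg adjusted p under 0.05 was called. The fit was tested on simulated data. No count test was run on the recovered reads. Python 3.11.15 with pandas 2.3.3 made the summaries.

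Genes were matched by symbol in any case, lists also by current symbol (12215 identifiers had one). Likeness names the 5 genes of highest r (1 for ptges is not reported here), and the pathway list names up to 4 strain-called genes of widest span per role. Members and lists were chosen with earlier results of these data known. Alternatives were scaling, filter, pseudocount, replicate block, single sexes, strains or libraries left out, and the summed copies, the last chosen after seeing the data.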

Additional observations from a re-analysis of the deposited data

How the results depend on the processing

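Of the 4 genes, the count called for sex was 1 and fell to 0 without SH, without HSB and for the sum of ptgdsb and zgc:153154; it was 1 without any single library. The count of sex calls within strains was 1 and became 2 with a pseudocount of 0.1 or without both LSB pools 2, and was 1 to 2 with single libraries left out. Counts called for strain (3, or 2 within a single sex), for pairs of strains (12, range 9 to 13) and for the interaction (0) stayed within 1.5 times. For ptgdsb the sex difference ranged from -0.38 to -0.21 over 27 alternatives (adjusted p 3.92e-04 to 0.158). Sex differences that had not passed changed sign: ptgs1 was -0.0016 without AB, -0.016 without LSB and -0.030 without both LSB pools 2, and -0.010 to 0.056 with single libraries left out; ptgs2a was 0.049 without AB and -0.051 to 0.051 with single libraries left out; zgc:153154 within AB was 0.029 after median-ratio scaling and -0.019 to 0.010 with single libraries left out. AB minus SH of zgc:153154 was -0.048 in females alone and -0.035 to 0.036 with single libraries left out, and its HSB minus AB 0.17 in females alone and -0.057 to 0.035 with single libraries left out. LSB minus SH of ptges was -0.0092 in females alone and -0.053 to 0.14 with single libraries left out. LSB minus AB was 0.0059 for the sum of ptgdsb and zgc:153154, against -0.57 for ptgdsb. The cause of these changes was not tested. Over all genes, the sex calls were 6, but 109 without LSB, 80 without both LSB pools 2, 1 without AB, 0 without SH or HSB, and 5 to 52 with single libraries left out; calls within LSB were 1684 and 5 to 3565 with single libraries left out, and interaction calls 5 and 0 to 1947. Whether pool numbers pair the libraries was not settled. Correlations of deviations by pool number were -0.21 to 0.31 between sexes of a strain and -0.14 to 0.27 between strains. Pairs of groups that shared neither strain nor sex had -0.22 to 0.14. With the pool number as a replicate block the counts for the 4 genes were 1 for sex, 3 for strain and 13 for pairs. The added call was LSB minus SH of ptgs1 (adjusted p = 0.0392 by limma). Median-ratio scaling moved the median of all genes by at most 0.07 on the log2 scale, in LSB minus SH. The levels of ptgs1, ptges and ptgs2a rested on 65 to 344 reads per library.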
